A study of Mus musculus with 20 samples.

Results

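Receptors for hematopoietic growth factors were followed as 9 genes, Kit, Flt3, Tek, Csf1r, Csf3r, Csf2ra, Csf2rb, Epor and Il3ra, in cells sorted from mouse bone marrow. Every probe set annotated to these symbols was taken, which gave 14 probe sets with 1 gene symbol and 1 shared with a second gene, of 45101 on the array. Expression had been measured on 20 Affymetrix arrays in 9 groups, in a study of genes that depend on the transcription factor Ets1 in natural killer (NK) cells. Of the wild-type C57bl/6 groups, 3 arrays each came from the common lymphoid progenitor (CLP) and the granulocyte-monocyte progenitor (GMP). Another 2 each came from stem cells (HSC), the multipotent progenitor (MPP), its lymphoid-primed form (LMPP), pro-B cells and CD4 T cells. The NK groups were mature NK cells of 129 mice that lacked Rag2, which is needed for antigen receptor rearrangement, and were either Ets1++ (n = 2) or Ets1-- (n = 2). All mice were 8 to 14 weeks old. Both NK groups carry the Rag2 deficiency, and because the other groups are wild-type C57bl/6, cell type, strain and Rag2 genotype cannot be told apart in any comparison of NK cells with them.

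The receptors fall into a pair of structural families. Kit, Flt3, Csf1r and Tek are receptor tyrosine kinases, which dimerise on binding their ligand and phosphorylate themselves. Csf3r, Csf2ra, Csf2rb, Il3ra and Epor are cytokine receptor chains without a kinase of their own, which signal through bound Janus kinases and STAT factors. In marrow, Kit signalling maintains stem and progenitor cells, Flt3 signalling serves early lymphoid and dendritic development, and the colony-stimulating factor receptors act in granulocytes and macrophages. Antibodies to KIT and FLT3 are in common use for sorting marrow progenitors. The gates used are not given in the sources used here, and the part of gating in differences of Kit or Flt3 between progenitors was not tested.

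Promoter sequences from RefSeq (GRCm38.p6), each running from 250 bases before to 50 after the annotated start, were matched to 7 of the 9 genes. Csf2rb had no entry, and the promoter of Csf1r was left out of the search, so the counts below do not cover these genes. The letters GGAA, the core that ETS factors such as Ets1 bind, were searched on both strands and stood in all 7 promoters, against 96% of the 32851 entries of that length. The longer ETS motif CGGAAG stood in 0 of 7 (16.9% of entries) and GAGGAA, which contains GGAA, in 3 of 7 (28.3%). Kit was called lower in Ets1-- than in Ets1++ NK cells. That call ended whichever NK array was left out, and with the mean of the Kit probe sets. Kit had 1 GGAA match, and Csf3r had 7, the highest count among the 7 genes, against a median of 3 in all entries. Both are shown in lower case with each GGAA or its reverse TTCC in capitals.
Kit (chr5:75574737-75575036, plus strand): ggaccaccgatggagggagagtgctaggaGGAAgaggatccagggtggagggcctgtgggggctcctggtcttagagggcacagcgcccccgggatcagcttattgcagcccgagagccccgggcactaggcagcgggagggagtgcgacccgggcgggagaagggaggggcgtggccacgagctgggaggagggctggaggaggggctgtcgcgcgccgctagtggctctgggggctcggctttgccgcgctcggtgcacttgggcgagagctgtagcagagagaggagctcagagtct
Csf3r (chr4:126024409-126024708, plus strand): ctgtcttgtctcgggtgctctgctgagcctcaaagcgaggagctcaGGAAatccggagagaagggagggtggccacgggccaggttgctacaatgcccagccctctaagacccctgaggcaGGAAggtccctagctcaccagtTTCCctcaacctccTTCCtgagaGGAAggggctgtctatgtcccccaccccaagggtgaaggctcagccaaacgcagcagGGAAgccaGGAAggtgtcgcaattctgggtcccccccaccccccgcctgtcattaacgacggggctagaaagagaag
GATAA, a sequence that GATA factors recognise, stood in 2 of the 7 promoters, those of Tek and Epor, a share near the 25.4% of all entries. They are shown because both genes were highest in HSC, and the match is not a result about them. Their promoters are given with GATAA or its reverse TTATC in capitals.
Tek (chr4:94739039-94739338, plus strand): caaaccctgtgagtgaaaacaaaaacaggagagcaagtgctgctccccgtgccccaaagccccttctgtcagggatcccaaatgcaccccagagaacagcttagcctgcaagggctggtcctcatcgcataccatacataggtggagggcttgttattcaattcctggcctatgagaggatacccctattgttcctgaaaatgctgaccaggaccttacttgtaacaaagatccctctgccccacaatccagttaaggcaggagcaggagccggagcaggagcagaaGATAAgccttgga
Epor (chr9:21963527-21963826, minus strand): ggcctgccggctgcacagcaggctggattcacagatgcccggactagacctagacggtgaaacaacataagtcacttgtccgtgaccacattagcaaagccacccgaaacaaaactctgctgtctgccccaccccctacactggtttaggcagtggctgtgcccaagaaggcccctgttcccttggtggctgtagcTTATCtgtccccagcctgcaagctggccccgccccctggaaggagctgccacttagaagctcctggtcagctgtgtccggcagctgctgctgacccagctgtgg
The RUNX sequence TGTGGT stood in 1 of 7 promoters, that of Epor (16.8% of entries), and the C/EBP sequence TTGCNNAA in 1 of 7, that of Il3ra (10.8%). A match is a run of letters and shows no binding.

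Levels are log2 intensities, and each gene is given by its probe set of highest mean unless another is named. Array medians lay between 3.78 and 4.04, so a value near 4 is an ordinary dim reading. Levels of different probe sets are not on 1 scale and are not compared. Differences were tested with limma over 13478 genes, and a gene was called at an adjusted p below 0.05. Mecom was high in HSC, Il7r in CLP, Mpo in GMP, Vpreb1 in pro-B cells, Cd3d in T cells and Ncr1 in NK cells. Not every marker was particular to its population. Il7r read 11.56 and 11.76 in CD4 T cells and 11.19 to 11.72 in CLP. Slamf1 read 6.94 and 6.71 in CD4 T cells and 6.61 and 6.55 in HSC. Pax5 read 5.36 and 4.91 in pro-B cells and 4.57 to 5.26 in CLP. MPP and LMPP had no marker list of their own. All 4 Ets1 probe sets read lower on both Ets1-- arrays than on both Ets1++ arrays, by 0.33 to 1.55 log2 units. Replicates correlated at 0.918 to 0.997. Actin 3' signal exceeded 5' signal by 5.20 and 5.27 log2 units on CLP arrays 1 and 3, 3.26 on CLP array 2 and 6.44 to 6.68 on the GMP arrays, against 0.97 to 4.07 on the other arrays. Its part in differences that involve CLP or GMP was not tested. In RNA from sorted pools, fewer cells that carry a transcript and less of it per cell cannot be told apart.

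**Figure D1:**
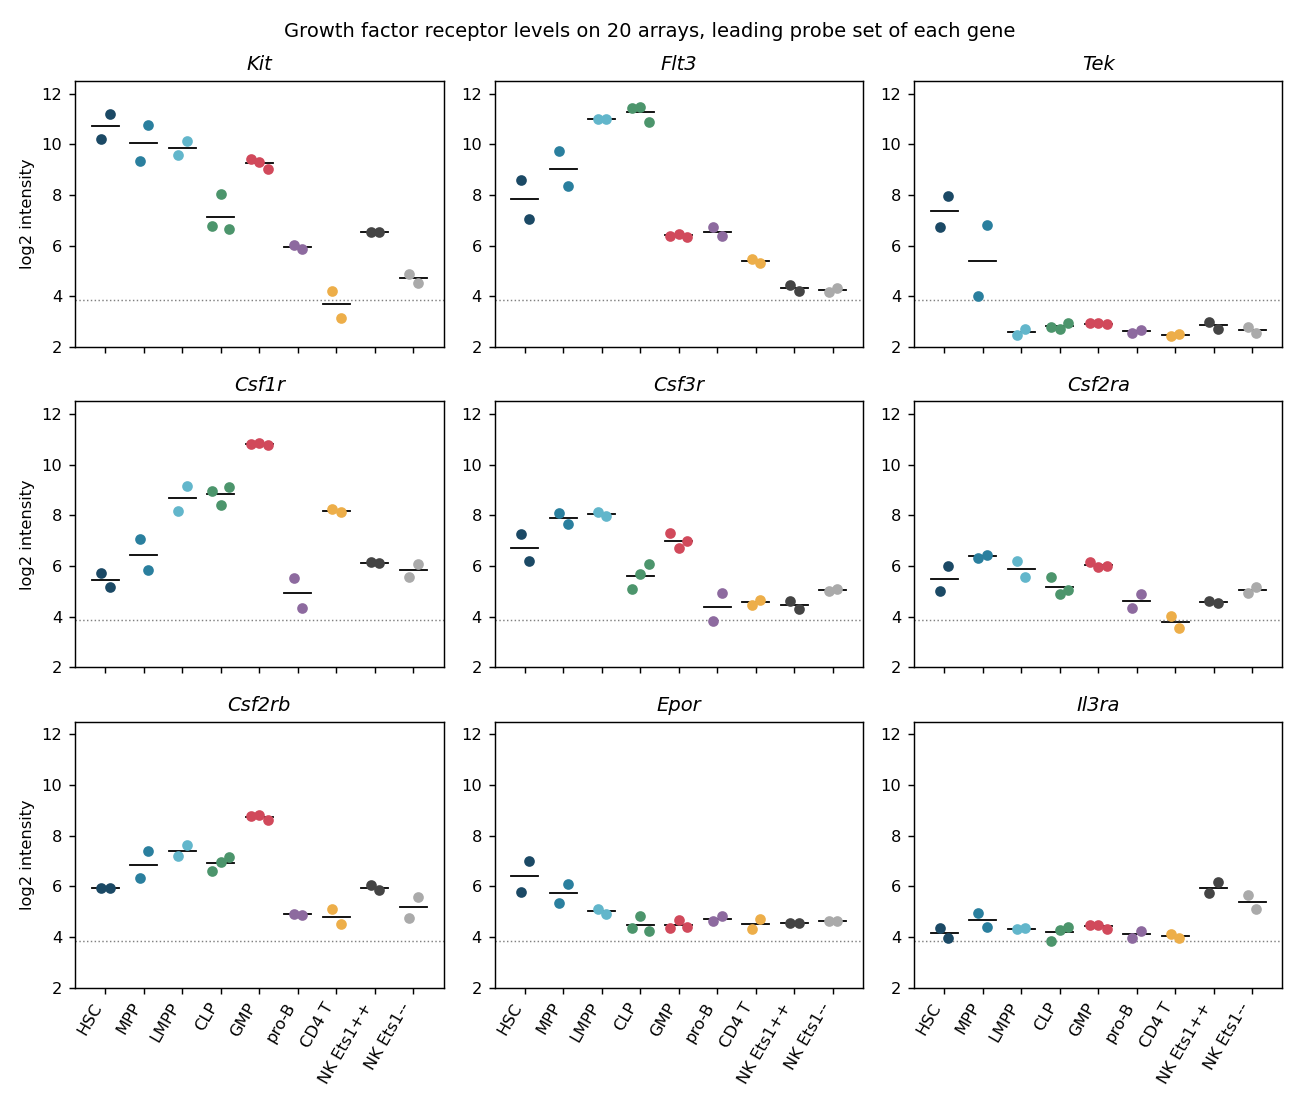
Log2 intensity of the leading probe set of each receptor gene on the 20 arrays. Points are arrays, horizontal bars are group means and the dotted line is the mean of the array medians. Kit, Tek and Epor are highest in HSC, Flt3 in LMPP and CLP, Csf1r and Csf2rb in GMP, and Il3ra in NK cells.

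Kit, the receptor for stem cell factor, was high in stem cells and in the multipotent and myeloid progenitors and was lowest in CD4 T cells. The HSC arrays read 10.21 and 11.20, the MPP arrays 9.36 and 10.78 and the LMPP arrays 9.57 and 10.15. The GMP arrays read 9.43, 9.31 and 9.04 and the CLP arrays 6.76, 8.03 and 6.65. The arrays of HSC, MPP and LMPP overlapped, the GMP arrays lay just below LMPP and overlapped the lower MPP value, and every CLP array was below every GMP array. Among the differentiated cells, Ets1++ NK cells read 6.52 and 6.53, pro-B cells 6.05 and 5.87, Ets1-- NK cells 4.90 and 4.53 and CD4 T cells 4.22 and 3.16. From LMPP to CLP, Kit fell by 2.71 ± 0.45 log2 units (SE), a 6.56-fold difference (adjusted p = 0.000343). GMP exceeded CLP by 2.11 ± 0.40 (adjusted p = 0.000338). CD4 T cells were below CLP by a fitted -3.46 ± 0.45 (adjusted p = 5.85e-06), and pro-B cells by -1.19 ± 0.45 (adjusted p = 0.0473). The pro-B call held in 8 of 16 alternatives (adjusted p 6.61e-06 to 0.188) and ended without CLP array 2 (-0.74), pro-B array 1 (-1.27) or pro-B array 2 (-1.10), with dim genes kept in (0.0549), the mean of probe sets (0.0578), single probe sets (0.0576), array weights (0.146) or the compared arrays alone (0.135). With CLP array 2 as the single CLP array GMP exceeded CLP by 1.23 (adjusted p = 0.0824, range over 17 alternatives 4.96e-06 to 0.0824).

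A second Kit probe set, 1415900_a_at, gave a flatter picture. It read 5.76 and 8.31 in HSC, 6.16 and 6.61 in MPP, 5.46 and 5.95 in LMPP, 4.93 to 5.11 in GMP, 5.15 to 5.54 in CLP, and 3.71 to 4.59 in the differentiated cells. Its order from HSC down to the differentiated cells resembled that of the first, but GMP was not above CLP on it (difference -0.26 ± 0.41, adjusted p = 0.64 over 28989 probe sets). CLP lay below LMPP by a fitted -0.41 ± 0.46, which was not called. Ets1++ NK cells fell below CLP on this probe set (-1.41 ± 0.46, adjusted p = 0.019, with 17.7% of probe sets called lower), whereas on the first the difference was -0.62 ± 0.45 (adjusted p = 0.253). The fall of Kit from LMPP to CLP and its higher level in GMP than in CLP were thus called on 1 of its 2 probe sets.

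Flt3, the receptor for FLT3 ligand, was highest in LMPP and CLP. The LMPP arrays stood at a mean of 10.99 ± 0.0072 (SD, n = 2) and the CLP arrays at 11.43, 11.48 and 10.88. These groups overlapped, and their difference was 0.27 ± 0.39 (adjusted p = 0.652). The MPP arrays read 9.72 and 8.34 and the HSC arrays 8.60 and 7.07, so that HSC and MPP overlapped while both stayed below LMPP. GMP arrays lay at 6.40, 6.46 and 6.36, pro-B arrays at 6.72 and 6.37, CD4 T arrays at 5.46 and 5.32, Ets1++ NK arrays at 4.45 and 4.22 and Ets1-- NK arrays at 4.18 and 4.33. The replicates of those groups were tight, pro-B and GMP overlapped, and so did the NK genotypes. LMPP exceeded MPP by 1.96 ± 0.43 (adjusted p = 0.0174). Flt3 was lower than in CLP by a 29.0-fold difference in GMP (-4.86 ± 0.35, adjusted p = 3.73e-09), 26.3-fold in pro-B cells, 58.5-fold in CD4 T cells and 121-fold in Ets1++ NK cells. These calls in GMP, pro-B, CD4 T and NK cells held under every alternative run. That of LMPP above MPP ended without MPP array 2 (1.27), LMPP array 1 (1.96) or LMPP array 2 (1.97). It also ended after repeated quantile normalization (1.77, adjusted p = 0.058).

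**Figure D2:**
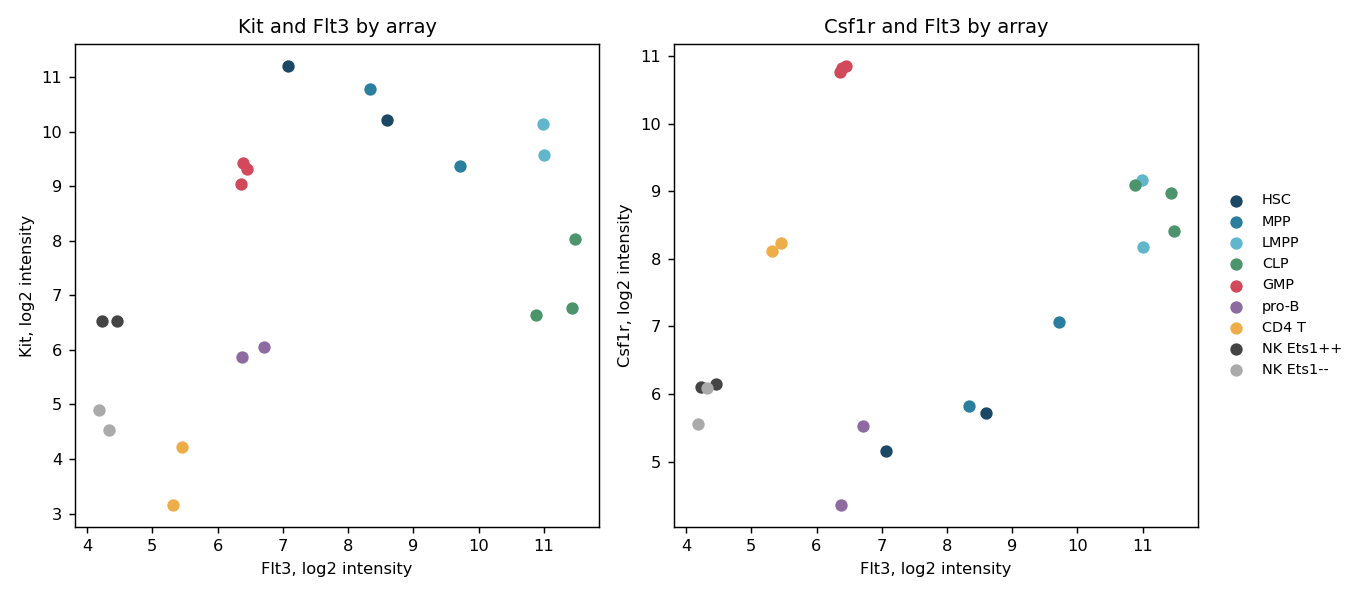
Kit (left) and Csf1r (right) against Flt3 on each array, all in log2 intensity of the leading probe set, with colours marking the 9 groups. LMPP arrays are high for both Kit and Flt3, CLP arrays keep Flt3 at 10.88 to 11.48 with Kit at 6.65 to 8.03, and GMP arrays have Flt3 at 6.36 to 6.46 with Kit at 9.04 to 9.43.

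Tek, the angiopoietin receptor TIE2, which endothelial cells and stem cells carry, was above the array median in HSC and MPP only. The HSC arrays read 6.75 and 7.95 and the MPP arrays 4.0 and 6.81. The 16 other arrays lay between 2.42 and 3.00, below the array median, where no order of the groups can be read. The higher MPP array overlapped HSC and the lower one was nearer to the dim arrays. MPP was below HSC by a fitted -1.95 ± 0.54 (adjusted p = 0.0379), and LMPP below MPP by -2.80 ± 0.54 (adjusted p = 0.00623). Tek passed the filter on dim genes only through the HSC and MPP arrays where it is high, and the LMPP arrays read 2.48 and 2.72, below the array median, so the size of the latter difference rests on a background reading. The first call ended without HSC array 2 (-1.34) or MPP array 1 (-0.54), and was -3.35 without MPP array 2. The second ended without MPP array 2 (-1.40), LMPP array 1 (-2.69) or LMPP array 2 (-2.92).

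Epor, the erythropoietin receptor, was also highest in HSC, then MPP and LMPP. It read 5.78 and 7.01 in HSC, 5.33 and 6.10 in MPP and 5.10 and 4.91 in LMPP. The 14 arrays of the other groups lay between 4.25 and 4.83, so that HSC and MPP overlapped and LMPP lay just above the rest. In 0 of the 9 comparisons was Epor called. The largest difference between HSC and MPP came without HSC array 1 (-1.30, called), against -0.68 ± 0.34 over all arrays (adjusted p = 0.286).

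Tek, Epor and Kit were each higher, and Flt3 lower, on HSC array 2 than on HSC array 1, and likewise on MPP array 2 than on MPP array 1. Of 5 erythroid genes, Klf1, Car1 and Gata1 were higher on array 2 in both groups, and Slc4a1 and Hba-a1, both below the array median there, were lower. Car1, an erythroid carbonic anhydrase, read 8.74 and 11.85 in HSC and 4.13 and 5.93 in MPP, and Klf1, an erythroid transcription factor, 6.61 and 9.47 in HSC and 5.28 and 7.19 in MPP. The summed level of 5 erythroid genes was 9.38 to 12.2 in HSC, 7.61 to 9.07 in MPP and 6.05 to 7.72 elsewhere. That of 5 megakaryocyte genes was 11.01 to 11.19 in HSC, 9.93 to 10.97 in MPP and 6.42 to 7.52 elsewhere. The 6 endothelial genes summed to 8.99 to 9.48 in HSC and 7.69 to 8.11 in MPP, with Esam at 8.03 and 8.66 in HSC. Cdh5, the defining endothelial cadherin, was dim, at 3.08 to 3.27 in HSC and MPP. The part of these genes in the Tek and Epor levels was not tested. Over the 9 receptors the root-mean-square SD between replicates was 0.930 in MPP and 0.703 in HSC, against 0.351 and 0.465 over all genes tested.

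Csf1r, the receptor for macrophage colony-stimulating factor, was highest in GMP. The GMP arrays read 10.83, 10.86 and 10.77, the CLP arrays 8.98, 8.41 and 9.10 and the LMPP arrays 8.18 and 9.17. CD4 T arrays read 8.23 and 8.12, which overlapped the lower LMPP array. The MPP arrays read 7.07 and 5.83, Ets1++ NK arrays 6.15 and 6.10, Ets1-- NK arrays 5.56 and 6.09, HSC arrays 5.72 and 5.16 and pro-B arrays 5.52 and 4.36. GMP stood clear of every other array, CLP and LMPP overlapped, and the groups from MPP downward overlapped with at least one neighbour in the order of means, apart from the 2 NK genotypes, which did not overlap each other. Csf1r rose from MPP to LMPP by 2.23 ± 0.43 (adjusted p = 0.00651) and was higher in GMP than in LMPP by 2.14 ± 0.39 (adjusted p = 0.00042), a 4.41-fold difference. It was lower than in CLP by a 14.8-fold difference in pro-B cells (-3.89 ± 0.39, adjusted p = 8.61e-07) and 6.51-fold in Ets1++ NK cells (-2.70 ± 0.39, adjusted p = 2.01e-05), while CD4 T cells did not differ detectably from CLP (-0.65 ± 0.39, adjusted p = 0.177). The rise from MPP to LMPP was not called without MPP array 2 (1.61) or LMPP array 2 (1.74).

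The other Csf1r probe sets did not all follow. On 1419873_s_at GMP read 8.89 to 9.09, LMPP 6.41 and 7.49, CD4 T cells 6.30 and 6.49 and CLP 6.10 to 6.59, with the remaining arrays between 4.37 and 5.56. GMP was again highest, with LMPP and CLP in the other order and overlapping, and GMP exceeded CLP by 2.62 ± 0.30 (adjusted p = 3.79e-06 over all probe sets, of which 25.4% were called higher). On 1423593_a_at group means spanned 1.48 log2 units in all, and of the 9 comparisons only Ets1++ NK cells against CLP was called (-1.06 ± 0.26, adjusted p = 0.00339). The level in CD4 T cells was thus high on 2 of the 3 probe sets. The summed level of 6 monocyte-macrophage and dendritic genes was 7.51 to 7.75 in CD4 T cells and at most 7.02 in pro-B cells, against 7.23 to 7.56 in GMP, and that of 5 GMP genes was 6.45 to 6.62 in CD4 T cells and 14.8 in GMP. Their part in the Csf1r level was not tested.

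Csf3r, the receptor for granulocyte colony-stimulating factor, was highest in LMPP and MPP rather than in GMP. The LMPP arrays read 8.15 and 7.99 and the MPP arrays 8.10 and 7.67, which overlapped. The GMP arrays read 7.31, 6.70 and 6.97 and the HSC arrays 7.27 and 6.18, which also overlapped. The CLP arrays read 5.08, 5.67 and 6.06, and the other groups lay at 5.01 and 5.08 (Ets1-- NK), 4.63 and 4.31 (Ets1++ NK), 4.47 and 4.66 (CD4 T) and 3.82 and 4.91 (pro-B). From LMPP, Csf3r fell by 2.46 ± 0.36 to CLP (adjusted p = 0.00011) and by 1.08 ± 0.36 to GMP (adjusted p = 0.031). GMP exceeded CLP by 1.39 ± 0.32 (adjusted p = 0.00185). Pro-B, CD4 T and Ets1++ NK cells were below CLP by fitted differences of -1.24, -1.04 and -1.13, all called. The call of GMP below LMPP ended without LMPP array 1, LMPP array 2, GMP array 2 or GMP array 3 (-1.16 to -0.93). Against CLP, the pro-B call ended without CLP array 3 (-1.01) or pro-B array 1 (-0.69), the CD4 T call without CLP array 3 (-0.81), CD4 T array 1 (-0.94) or CD4 T array 2 (-1.14), and the NK call without CLP array 3 (-0.91) or Ets1++ NK array 2 (-0.98). The pro-B and CD4 T calls held in 11 of 16 and 9 of 16 alternatives. Both also ended with array weights (adjusted p = 0.112 and 0.117) and with the compared arrays alone (0.0984 and 0.075). With CLP array 2 as the single CLP array both ended as well (-1.30 and -1.11). The CD4 T call also ended with the replicate number as a block.

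Csf2rb, the common beta chain shared by the receptors for GM-CSF, IL-3 and IL-5, was highest in GMP. The GMP arrays read 8.77, 8.81 and 8.61, the LMPP arrays 7.20 and 7.62, the CLP arrays 6.59, 6.97 and 7.15 and the MPP arrays 6.32 and 7.40. GMP stood clear of all other arrays, LMPP lay just above CLP, and MPP overlapped both. Ets1++ NK arrays read 6.04 and 5.84, HSC arrays 5.93 and 5.93, Ets1-- NK arrays 4.76 and 5.60, pro-B arrays 4.92 and 4.88 and CD4 T arrays 5.09 and 4.50. GMP exceeded CLP by 1.83 ± 0.29 (adjusted p = 5.69e-05) and LMPP by 1.32 ± 0.32 (adjusted p = 0.00426). Csf2rb was lower than in CLP by a 4.02-fold difference in pro-B cells, 4.31-fold in CD4 T cells and 1.95-fold in Ets1++ NK cells. The call of GMP above LMPP ended without LMPP array 1 (1.11), and the NK call ended without CLP array 3 (-0.84), Ets1++ NK array 1 (-1.06) or Ets1++ NK array 2 (-0.86). The NK call also ended with the compared arrays alone (adjusted p = 0.0578). With CLP array 2 as the single CLP array it ended too (-1.03).

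Csf2rb has a near copy, Csf2rb2, which encodes an IL-3 receptor beta chain, so probe sets of either gene can take signal from both. The second Csf2rb probe set, 1421326_at, was above the array median on 4 of 20 arrays. It read 4.49 to 4.69 in GMP and 2.98 to 3.43 in CLP, where it was not above the median, and it passed the filter only through the GMP arrays and an LMPP array, so no weight is placed on its difference. The probe set annotated to both genes, 1450200_s_at, ran the other way. It read 4.22 to 4.45 in GMP and 4.59 to 5.50 in CLP, a difference of -0.82 ± 0.26 (adjusted p = 0.0161, with 16.7% of probe sets called lower). On the probe set of Csf2rb2 alone, 1449360_at, GMP was at a mean of 5.41 and CLP at 4.57, a difference of 0.84 ± 0.50 that was not called (adjusted p = 0.167). Which gene the shared probe set reports cannot be told apart here.

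**Figure D3:**
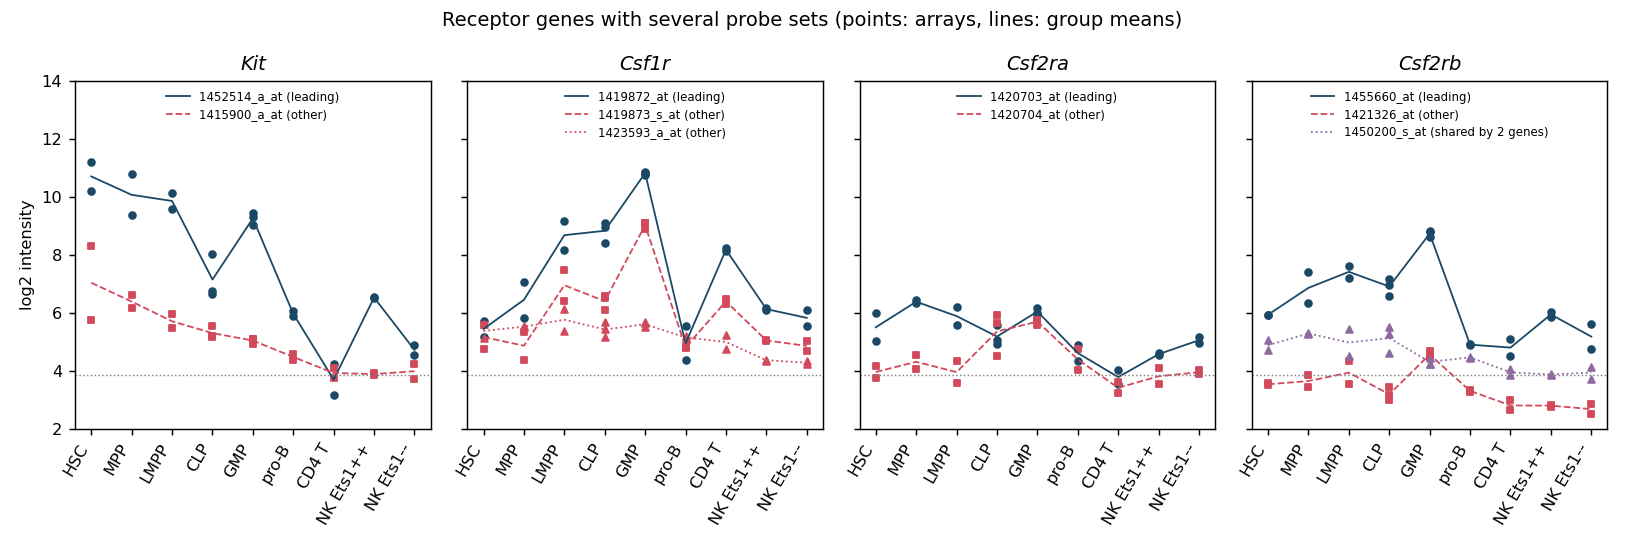
Log2 intensity of every probe set of the 4 receptor genes with more than 1, by group. Points are arrays, lines join group means, and the dotted line is the mean of the array medians. The second Kit probe set and the Csf1r probe set 1423593_a_at are flatter than the leading ones. The probe set shared by Csf2rb and Csf2rb2 is lower in GMP than in CLP, while the leading Csf2rb probe set is higher. The Csf2rb probe set 1421326_at is below the array median in CLP, and no weight is placed on its difference.

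Csf2ra encodes the GM-CSF-specific alpha chain. Its means ran from 6.38 ± 0.09 in MPP (SD, n = 2), 6.04 ± 0.11 in GMP (n = 3) and 5.88 ± 0.43 in LMPP (n = 2) to 3.78 ± 0.34 in CD4 T cells (n = 2), with HSC, CLP, NK and pro-B arrays between 4.34 and 5.99. GMP exceeded CLP by 0.86 ± 0.27 (adjusted p = 0.0131), which turned to -0.066 when arrays were centred on housekeeping genes and was not called without GMP array 1 (0.80). The call held in 12 of 17 alternatives. CD4 T cells fell below CLP by 1.40 ± 0.30 (adjusted p = 0.000928). The second probe set, 1420704_at, placed GMP (5.57 to 5.76) and CLP (4.51 to 5.92) together and above LMPP (3.57 and 4.33), and on it CLP exceeded LMPP by 1.41 ± 0.36 (adjusted p = 0.0103, with 6.71% of probe sets called higher) where the first gave -0.71 ± 0.30 (adjusted p = 0.0912). The probe sets thus disagree on the sign of the step from LMPP to CLP.

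Il3ra, the alpha chain of the IL-3 receptor, was the receptor gene with its highest level in NK cells. Ets1++ NK arrays read 5.74 and 6.15 and Ets1-- NK arrays 5.67 and 5.10. The MPP arrays read 4.93 and 4.40, and the 14 remaining arrays lay between 3.85 and 4.47. The NK arrays did not overlap those of any other group, while the other groups lay close to the array median. Ets1++ NK cells exceeded CLP by 1.77 ± 0.25, a 3.42-fold difference (adjusted p = 1.46e-05), and this was 0.78 with an adjusted p of 0.107 when arrays were centred on housekeeping genes (range over 16 alternatives 2.81e-06 to 0.107). Genes of other cell types were read beside it, in a comparison where 32.4% of all genes were called higher and 19.2% lower. Of 6 monocyte-macrophage and dendritic genes, 2 were higher and 2 lower in Ets1++ NK cells than in CLP, and their sum of 9.36 to 9.40 against 7.45 to 8.29 was mainly Itgax, at 8.91 and 8.92. Of 4 tested mast cell and basophil genes 2 were higher and 0 lower, and the list summed to 7.31 to 7.43 in Ets1++ NK cells, 6.33 to 6.62 in CLP and 9.74 to 9.90 in GMP. Of 7 mature neutrophil genes 6 were higher and 1 lower, with sums of 13.3 in Ets1++ NK cells and 6.68 to 7.98 in CLP. Their part in the Il3ra level was not tested.

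Between the NK genotypes, Kit was lower in Ets1-- than in Ets1++ cells and the other 8 receptors were not called. Kit read 4.90 and 4.53 on the Ets1-- arrays and 6.52 and 6.53 on the Ets1++ arrays, with no overlap. The fitted difference was -1.81 ± 0.49, 3.51-fold (adjusted p = 0.0446). Counted over genes, 1 of 9 receptors passed, against 3.81% of all genes tested (2.23% lower and 1.59% higher), and 2 of 9 had an unadjusted p under 0.05. Values of the genotypes were fully separate for 7 of 9 receptors, 3 higher and 4 lower in Ets1-- cells, against 55.4% of all genes. Csf2rb (-0.76 ± 0.35, adjusted p = 0.353), Il3ra (-0.57 ± 0.27, adjusted p = 0.401) and Csf1r (-0.30 ± 0.43) were on the lower side, and Csf3r (0.57 ± 0.40, adjusted p = 0.672), Csf2ra (0.48 ± 0.33) and Epor (0.10 ± 0.34) on the higher side. The second Kit probe set did not show the difference (0.10 ± 0.51, adjusted p = 0.988 over all probe sets), but it lay near the array median in both genotypes. The Kit call ended without any 1 of the 4 NK arrays (-1.99 to -1.63), when dim genes were kept in (adjusted p = 0.0513), with the mean of both probe sets (-0.85, adjusted p = 0.384) and when single probe sets were tested (adjusted p = 0.0509), and over the 14 alternatives the adjusted p ran from 0.000205 to 0.384.

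Genes of the GMP marker list moved with Kit between the genotypes, where 2.23% of all genes were called lower and 1.59% higher. All 5 genes of the list fell in Ets1-- cells. Mpo, myeloperoxidase, read 8.16 and 8.26 in Ets1++ and 5.40 and 3.84 in Ets1-- cells. Fcgr3, also in the GMP list, is not particular to GMP here. It read 10.28 and 10.39 in Ets1++ and 9.03 and 9.19 in Ets1-- NK cells, and 8.90 to 9.21 in GMP. The summed level of the list was 10.8 to 10.9 in Ets1++ cells and 9.33 to 9.39 in Ets1-- cells. Of 7 mature neutrophil genes 1 was called lower, and their sum was 13.3 in Ets1++ cells and 11.5 to 12.3 in Ets1-- cells. Ltf, S100a8, S100a9, Camp, Ngp and Mmp8 read lower on both Ets1-- arrays than on both Ets1++ arrays, and Cxcr2 overlapped. Over all genes tested, 55.4% had no overlap between the genotypes. Among 4 tested mast cell and basophil genes Cpa3 rose, from 3.93 and 4.34 to 5.85 and 6.18, and the list summed to 7.31 to 7.43 and 7.15 to 7.47. Cd3d, a T cell receptor complex gene, read 7.89 and 7.84 in Ets1-- and 4.37 and 5.61 in Ets1++ cells, and 6 T cell genes summed to 8.54 to 8.62 and 7.81 to 8.01. The part of such cells in the Kit difference was not tested.

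**Figure D4:**
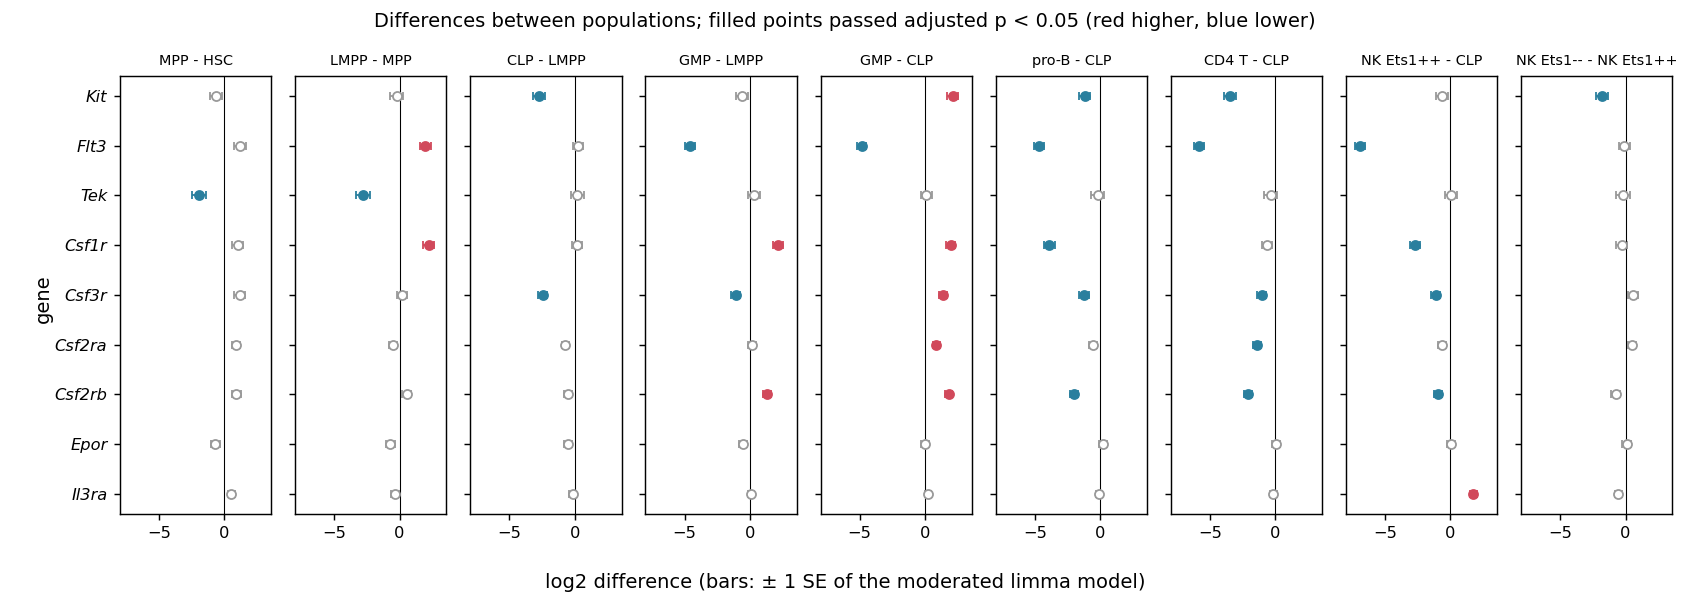
Log2 difference of each receptor gene in the 9 comparisons, as fitted by limma, with bars of 1 SE. Filled points passed an adjusted p below 0.05, red when higher and blue when lower in the group named first. Flt3 lies between -6.92 and -4.72 in GMP, pro-B, CD4 T and Ets1++ NK cells against CLP, and Tek is called only in the steps from HSC to MPP and from MPP to LMPP.

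From HSC to MPP, 0 of 9 rose and 1 fell (Tek), against 1.93% and 3.99% of all genes, while 6 of 9 had an unadjusted p under 0.05 and the median difference was 0.88 against -0.14 over all genes. Without HSC array 1, Flt3 (1.96) and Csf3r (1.70) were called higher and Epor lower in MPP, without HSC array 2 Csf2ra was (1.37), and without MPP array 2 Flt3 was (1.89). From MPP to LMPP, 2 rose (Flt3 and Csf1r) and 1 fell (Tek), against 0.942% and 0.772% of all genes. Tek passed the filter on dim genes only through its HSC and MPP arrays, so no weight is placed on its fall in either count. From LMPP to CLP, 0 rose and 2 fell (Kit and Csf3r), against 6.95% and 19.2%. From LMPP to GMP, 2 rose (Csf1r and Csf2rb) and 2 fell (Flt3 and Csf3r), against 16% and 13%.

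Comparisons of GMP, pro-B, CD4 T and Ets1++ NK cells with CLP share the 3 CLP arrays and are not independent of each other. In GMP, 5 of 9 were higher (Kit, Csf1r, Csf3r, Csf2ra and Csf2rb) and 1 lower (Flt3), against 31% and 18.1% of all genes. The median difference was 0.86 against 0.09 over all genes. In pro-B cells 5 were lower (Kit, Flt3, Csf1r, Csf3r and Csf2rb) and 0 higher, against 14% and 21.1%, with a median of -1.19 against -0.02. In CD4 T cells 5 were lower (Kit, Flt3, Csf3r, Csf2ra and Csf2rb) and 0 higher, against 19.7% and 29%, with a median of -1.04 against 0.05. In Ets1++ NK cells 4 were lower (Flt3, Csf1r, Csf3r and Csf2rb) and 1 higher (Il3ra), against 19.2% and 32.4%, with a median of -0.62 against 0.17. The shares called in either direction in CD4 T and NK cells (5 of 9 in each) lie near the 48.7% and 51.6% of all genes.

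**Figure D5:**
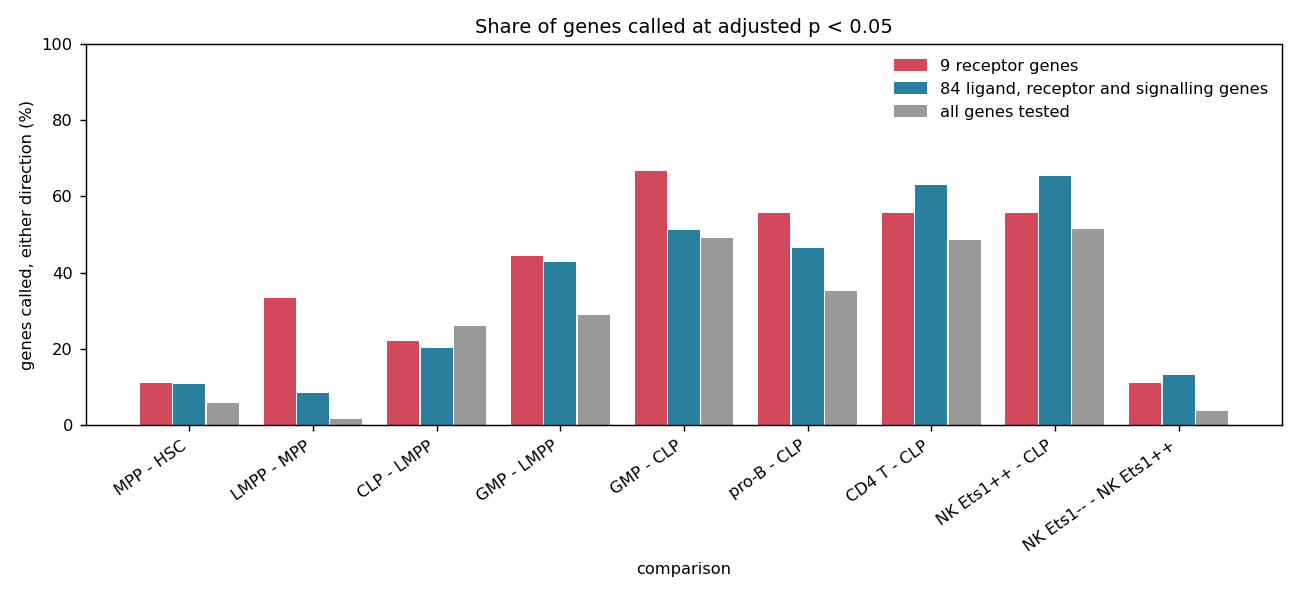
Percent of genes called in either direction in each comparison, for the 9 receptor genes (red), the 84 tested ligand, receptor and signalling genes (blue) and all 13478 genes tested (grey). The receptor share is above that of all genes except from LMPP to CLP, and with 9 genes each call is 11.1 percentage points. Tek, which passed the filter on dim genes only through HSC and MPP, is the only call from HSC to MPP. It is also 1 of those from MPP to LMPP.

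The rest of the pathway was read from a list of ligands, related receptors, signalling genes, inhibitors and targets, of which 94 were on the array and 84 were tested. Of these, 1 rose and 8 fell from HSC to MPP, 4 and 3 from MPP to LMPP, 8 and 9 from LMPP to CLP, and 12 and 24 from LMPP to GMP. In either direction these were 10.7%, 8.33%, 20.2% and 42.9% of the 84, against 5.92%, 1.71%, 26.1% and 28.9% of all genes. Relative to CLP, 17 were higher and 26 lower in GMP, 10 and 29 in pro-B cells, 25 and 28 in CD4 T cells, and 32 and 23 in Ets1++ NK cells. The shares in either direction were 51.2%, 46.4%, 63.1% and 65.5%, against 49.1%, 35.1%, 48.7% and 51.6% of all genes. The median difference of the 84 genes was -0.57 in pro-B cells against -0.02 over all genes, and -0.26 in GMP against 0.09.

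Of the ligands, 4 of 9 on the array were tested. Angpt1, the angiopoietin that activates Tek, fell from LMPP to CLP (-3.03 ± 0.42) and from LMPP to GMP (-2.93 ± 0.42), and was lower than in CLP in pro-B (-2.46) and CD4 T cells (-3.99). Csf1, the ligand of Csf1r, was lower in GMP than in CLP (-1.08 ± 0.22), as was Csf2, which encodes GM-CSF (-1.04 ± 0.37). Csf2 read 5.60, 4.15 and 5.73 on the CLP arrays and 3.86, 4.34 and 4.16 on the GMP arrays. CLP array 2 thus lay within the GMP range. CLP arrays 1 and 3 are those with the larger actin 3' excess, whose part was not tested.

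Of 12 other receptors tested, 8 fell and 0 rose in pro-B cells relative to CLP (14% and 21.1% of all genes), and 8 fell and 1 rose in Ets1++ NK cells (19.2% and 32.4%). Il7r, the IL-7 receptor chain of lymphoid progenitors, rose by 6.02 ± 0.40 from LMPP to CLP and was lower in GMP (-7.65 ± 0.35) and in NK cells (-3.71 ± 0.40) than in CLP. Pdgfrb, a platelet-derived growth factor receptor of the same kinase class as Kit, was lower than in CLP in pro-B (-5.45), CD4 T (-5.57) and Ets1++ NK cells (-5.67), and in GMP (-1.51). It was below the array median on the pro-B, CD4 T and Ets1++ NK arrays, so the sizes of those differences rest on background readings. Il2rb, the beta chain for IL-2 and IL-15, was higher in CD4 T (3.25) and NK cells (6.36) than in CLP. It passed the filter on dim genes only through the CD4 T and NK arrays where it is high. The CLP arrays read 3.02 to 3.38, below the array median, so the sizes of these differences rest on a background reading. Tie1, the partner of Tek, fell from MPP to LMPP (-2.45 ± 0.26), and Kdr, a VEGF receptor, from HSC to MPP (-1.65 ± 0.28). Il6st, the shared chain of the IL-6 family, fell from HSC to MPP (-2.12) and rose from MPP to LMPP (2.00), the latter together with its partner Il6ra (1.97).

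Of 7 JAK-STAT genes, 5 rose and 0 fell in CD4 T cells relative to CLP (29% and 19.7% of all genes), and 4 rose and 0 fell in Ets1++ NK cells (32.4% and 19.2%). Of 26 RAS and PI3K signalling genes, 11 rose and 7 fell in GMP relative to CLP (31% and 18.1% of all genes), and 12 rose and 5 fell in Ets1++ NK cells (32.4% and 19.2%). Grb10, an adaptor that binds receptor tyrosine kinases, fell from HSC to MPP (-2.15 ± 0.46). Of 24 inhibitors, 4 rose and 7 fell from LMPP to GMP (16% and 13% of all genes), and Socs3, a feedback inhibitor of cytokine signalling, fell from LMPP to CLP (-2.98 ± 0.50). Of 11 target genes, 0 rose and 6 fell from LMPP to GMP (16% and 13% of all genes). Between the NK genotypes 4 of the 84 genes rose and 7 fell in Ets1-- cells (1.59% and 2.23% of all genes). Il7r (-2.59 ± 0.43, adjusted p = 0.00112), Cd44 (-2.21 ± 0.27, adjusted p = 3.65e-05) and Il6st (-1.81 ± 0.29, adjusted p = 0.000762) were among the lower. Pdgfrb (1.57 ± 0.43, adjusted p = 0.0498) was among the higher. It read 2.58 and 2.35 on the Ets1++ arrays and 3.32 and 4.75 on the Ets1-- arrays, and only the last of these was above the array median.

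The genes whose profile was most like each receptor were sought by Pearson's r over the 9 group means, among 5174 genes whose means spanned at least 2 log2 units. These values describe the groups and carry no test, and the points share arrays and normalization. For Tek they were Pgap4 (0.99), Clca3a1 and Vwf, the last encoding von Willebrand factor. For Epor they were Slc18b1 (0.99), Cavin3 and Pdzk1ip1, and for Kit Rgs18 (0.98), Adgrl4 and Alox5ap. Flt3 was nearest to Hmga2 (0.97), Il12a and Macroh2a1, and Csf3r to Fut7 (0.98), Plppr3 and Rhobtb3. Csf2rb was nearest to the granule enzyme gene Mpo (0.97), Bace1 and Ctsg, and Csf1r to Mpeg1 (0.93), Chdh and Sgk3. Csf2ra was nearest to Prkar2b (0.92), Uck2 and Pla2g4a, and Il3ra to C1qtnf6 (0.97), Notch4 and St6galnac2. Among the receptors themselves r was highest for Tek with Epor (0.96) and for Csf3r with Csf2ra (0.90), and Kit stood at 0.87 with Csf3r. Csf2ra and Csf2rb, the chains of the GM-CSF receptor, stood at 0.78.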

How the data were processed

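Amplified, biotin-labelled RNA of sorted cells was hybridised to 20 arrays, per the labels' protocols. The deposited values are linear intensities made with RMA, per the submitters' processing notes, with no version named there. The planned tests expected log2 input, so log2 of the deposited intensities was taken first. Probe sets with 1 symbol (34958) were named from the platform table, updated by Entrez ID to a RefSeq table of GRCm38.p6 (34754 matched). Each gene took its probe set of highest mean, and 13478 of 18193 genes, with 2 or more arrays above the array median, were tested.

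Tests used limma 3.58.1 under R 4.3.3, with a trend of variance on intensity, in 1 model of 9 groups with 11 residual degrees of freedom, and Benjamini-Hochberg adjustment. Single probe sets were tested over 28989. The summed level of a marker list is log2 of the sum of its intensities. No label says that replicates came from separate animals. The p-values therefore cover only how far these samples vary, possibly for technical reasons. The 2 or 3 arrays per group limit precision. Members and lists were chosen with earlier results of these data known. By rule, all members were named, the 3 genes most like each, and up to 4 called pathway genes per comparison, ligands and receptors first. Marker genes were named beside a result they moved with. The model was tested on simulated data. Alternatives were the filter, probe set choice, trend, array weights, normalization, samples fitted, the replicate number as a block, and leaving out each array.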

Additional observations from a re-analysis of the deposited data

How the results depend on the processing

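Of 32 called differences of receptor genes, 31 kept their direction under every alternative and 16 kept their call, and 440 of 504 recomputed values kept the call. The direction of the other, Csf2ra between GMP and CLP, turned to -0.066 when arrays were centred on 11 housekeeping genes. That centring shifted every gene of a comparison alike, by 1.37 from LMPP to CLP, 0.44 from LMPP to GMP, and -0.93 for GMP, -1.14 for pro-B, -1.38 for CD4 T and -0.99 for Ets1++ NK cells against CLP, so differences relative to the median of all genes stayed as given. Under it Epor, not called before, was -0.90 in pro-B, -1.34 in CD4 T and -0.94 in Ets1++ NK cells against CLP, and Il3ra was 1.22 from LMPP to CLP. Also under it, MPP against HSC had 0 members lower. CLP against LMPP had 4 higher, GMP against LMPP 1 lower, GMP against CLP 3 higher and 2 lower, pro-B cells 9 lower, CD4 T cells 9 lower, and Ets1++ NK cells 0 higher and 7 lower. The member lower in MPP than in HSC (1) was lost, leaving 0, with every probe set on its own, with array weights and with the compared arrays alone. The member lower in Ets1-- NK cells (1) was lost, leaving 0, with no filter, with the mean of probe sets and with every probe set on its own. Pro-B cells had 3 lower in place of 5 with array weights or with the compared arrays alone. LMPP against MPP had 1 higher in place of 2 after repeated quantile normalization, and 0 lower with the compared arrays alone, where GMP against LMPP had 4 lower in place of 2. Leaving out 1 array at a time gave 0 to 2 members higher and 0 to 2 lower in MPP against HSC, 0 to 2 and 0 to 1 in LMPP against MPP, 1 to 2 and 1 to 2 in GMP against LMPP, 4 to 5 higher in GMP against CLP, 3 to 5 lower in pro-B, 4 to 5 lower in CD4 T and 2 to 4 lower in Ets1++ NK cells against CLP, and 0 lower between NK genotypes. Where an array was left out of a group of 2, the remaining one was assumed to vary like the other groups. Same-numbered arrays did not deviate together in every pair (r from -0.17 to 0.37), so the numbers were not taken as pairs. With the replicate number as a block the member counts were the same except in CD4 T cells against CLP, where 4 were lower in place of 5, Csf3r being -0.93 (adjusted p = 0.0562). Genes near the array median, Tek outside HSC and MPP above all, have no readable order.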
